A study of Mus musculus with 7 samples.

Results

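Myl2, Myl3, Myl4, Myl7, Sln, Bmp10 and Irx4 are 7 genes known as markers of the ventricular or atrial chambers of the heart, and their rows were taken by gene symbol from a table of 56980 genes, in which all 7 were present. The table held FPKM, the fragments counted on a gene relative to its length and to the depth of the library, in the myocardium of 7 wild-type male C57BL/6J mice bought at 8 weeks of age. After 1 week of acclimation the left coronary artery was ligated in 3 mice (MI group), and 4 mice had the same operation without ligation (sham group). Tissue was taken 4 days after MI, each mouse gave 1 library, and the sources used here describe it as myocardium, ischemic in the MI mice, without naming a chamber.

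The atria and the ventricles use different versions of the same contractile parts. Each myosin head carries a regulatory and an essential light chain. Ventricular muscle uses Myl2 as the regulatory and Myl3 as the essential light chain, and atrial muscle uses Myl7 and Myl4 in their place, with Myl4 also made by embryonic muscle. Irx4 is an Iroquois homeobox transcription factor restricted to the ventricles, Sln encodes sarcolipin, a small inhibitor of the calcium pump SERCA that in the mouse heart is made mainly in the atria, and Bmp10 encodes a secreted growth factor that in the adult heart is made mainly in the right atrium.

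The libraries held 19977713 to 23610870 fragments, recovered from the steps in the FPKM values. MI replicate 2 stood close to the sham mice: its root mean square log2 difference from the sham mean over the 11431 genes tested was 0.23, against 0.127 to 0.144 in the sham mice, 0.851 in MI replicate 1 and 0.756 in MI replicate 3. Mitochondrial genes held 26.5% to 27.4% of the fragments in the sham mice, and 13.6%, 28.2% and 14.9% in MI replicates 1 to 3. Results are therefore given by mouse, and those of the members tested also without MI replicate 2. Calls for the other gene lists are given with all mice only. Over all genes tested, 2 were called higher and 1 lower with all mice, and 6512 and 1683 without MI replicate 2.

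The promoters of 4 members are shown because the 7 genes are defined by where they are switched on. The windows are the 250 bases before the RefSeq start of each gene in GRCm38.p6, written along the gene's strand, at chr9:110763428-110763677 (+ strand) for Myl3, chr13:73260247-73260496 (+ strand) for Irx4, chr11:5898783-5899032 (- strand) for Myl7 and chr6:87428744-87428993 (+ strand) for Bmp10. Capitals mark the CArG box, the sequence bound by serum response factor, and GATAA, the core of the sites bound by GATA factors. The windows are:
Myl3: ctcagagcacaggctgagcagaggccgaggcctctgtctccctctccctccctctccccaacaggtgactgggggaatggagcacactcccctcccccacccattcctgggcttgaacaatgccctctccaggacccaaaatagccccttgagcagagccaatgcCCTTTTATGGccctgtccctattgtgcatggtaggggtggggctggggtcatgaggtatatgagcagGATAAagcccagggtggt
Irx4: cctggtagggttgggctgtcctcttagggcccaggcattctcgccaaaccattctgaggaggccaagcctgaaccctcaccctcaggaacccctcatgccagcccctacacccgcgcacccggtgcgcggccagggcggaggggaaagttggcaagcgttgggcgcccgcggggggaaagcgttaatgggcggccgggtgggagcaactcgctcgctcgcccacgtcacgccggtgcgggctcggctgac
Myl7: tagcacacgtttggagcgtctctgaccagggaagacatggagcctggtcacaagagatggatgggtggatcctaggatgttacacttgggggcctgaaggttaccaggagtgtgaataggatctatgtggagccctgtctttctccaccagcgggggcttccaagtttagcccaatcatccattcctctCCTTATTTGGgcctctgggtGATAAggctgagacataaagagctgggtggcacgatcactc
Bmp10: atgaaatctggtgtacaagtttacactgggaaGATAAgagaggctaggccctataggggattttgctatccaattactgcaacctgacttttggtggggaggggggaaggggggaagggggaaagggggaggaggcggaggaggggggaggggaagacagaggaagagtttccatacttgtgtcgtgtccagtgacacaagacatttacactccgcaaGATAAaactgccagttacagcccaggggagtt

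RefSeq gave a window for 6 of the 7 members, and Sln was not matched. A CArG box stood 85 to 76 bases before the start in Myl3, the ventricular essential chain, and 61 to 52 bases before the start in Myl7, the atrial regulatory chain, and on either strand it was present in 1.47% of 32851 mouse promoter windows of this length. GATAA followed nearer the start in the same windows, 18 to 14 bases before it in Myl3 and 41 to 37 bases before it in Myl7, and Bmp10 held it at 218 to 214 and at 32 to 28 bases, against 22.6% of all windows with it on either strand. The Irx4 window held neither of these, nor the MEF2 box (2.92% of windows), TATAAA (12.4%) or the T-box core AGGTGT (11.8%), and it was the richest in G and C, at 68.8% against 52.8% in Myl7 and 59.6% in Myl3. No 2 of the matches overlapped, although a MEF2 box can hold TATAAA within it, and the CArG box reads as a match on both strands at 1 place. The Myl4 window held none of the 5 motifs, and the Myl2 windows, whose starts lie 7762 and 8227 bases from the nearest transcript start of Myl2 in GENCODE M21, are not shown. For Myl3 the GENCODE gene begins 21817 bases before the RefSeq start, and its nearest GENCODE transcript begins 32 bases before it, so that the GATAA of Myl3 lies inside that transcript and its CArG box before it. The starts of the other 3 genes shown were at a GENCODE transcript start. These matches are descriptions of letters and were not tested for binding.

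**Figure D1:**
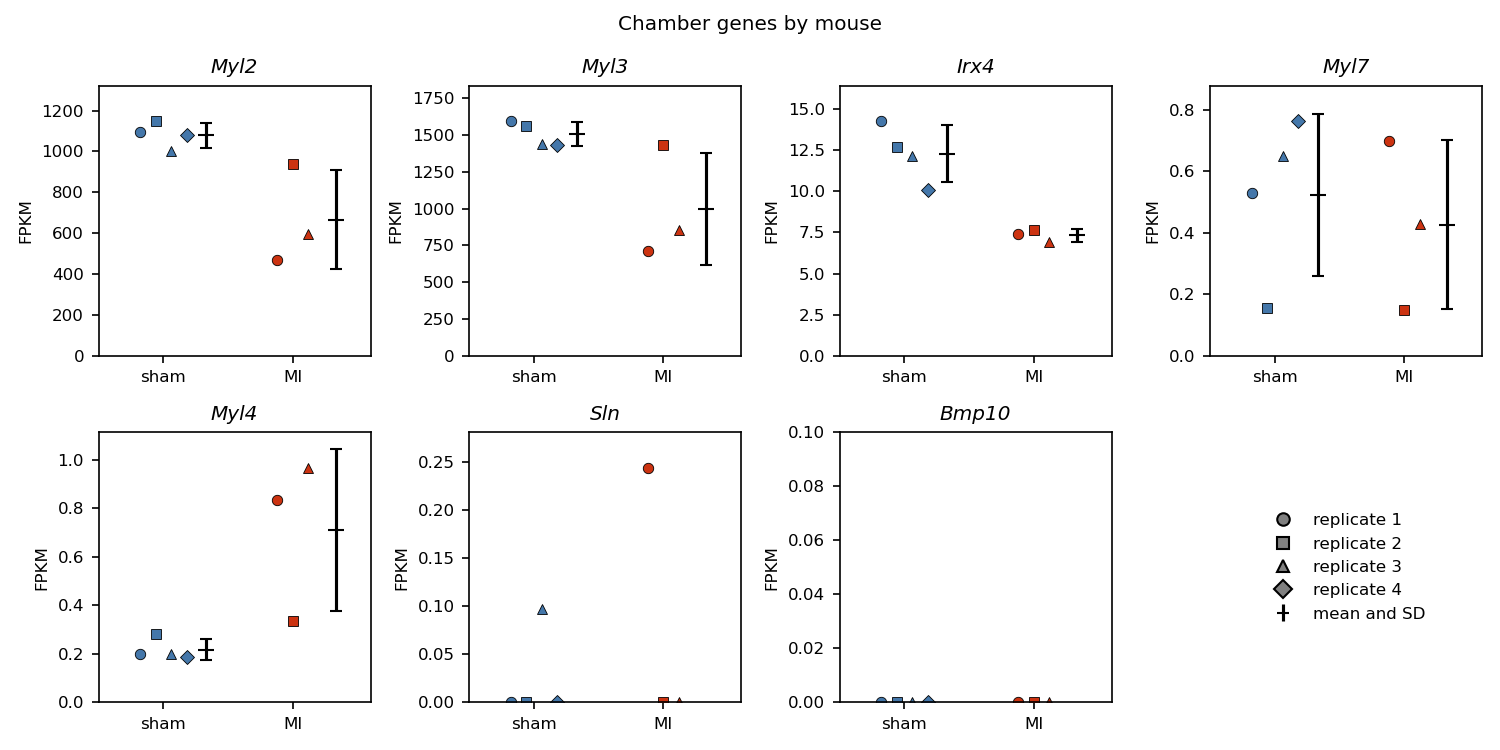
FPKM of the 7 chamber genes (y axis of each panel, linear, with its own scale) in 4 sham mice (blue) and 3 MI mice (red), with the symbol showing the replicate and black marks the mean and SD, drawn for the 5 genes detected in every mouse. Myl2, Myl3 and Irx4 were lower in every MI mouse than in any sham mouse, Myl4 was above every sham mouse in every MI mouse, and Bmp10 was 0 in all 7.

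Among the members, the ventricular light chains stood at high level, Irx4 much lower, and the atrial genes below 1 FPKM in every mouse. Other genes used more in the atria, given below, ranged up to Nppa, at a mean of 123 FPKM in sham. Myl3 stood at 1506 ± 82.7 FPKM and Myl2 at 1080 ± 61.1 in the sham mice (SD, n = 4), and Irx4 at 12.3 ± 1.74. Myl7 was at 0.525 ± 0.264 FPKM and Myl4 at 0.217 ± 0.0431, Sln was above 0 in 1 of 4 sham mice, and Bmp10 in none. Within every mouse the order ran from Myl3 through Myl2 and Irx4 to the atrial chains, and Myl7 and Myl4 had no fixed order, with Myl7 the lower of the pair in sham replicate 2 and in all 3 MI mice. In each mouse Myl7 came to between 0.0136% and 0.149% of Myl2, and Myl4 to between 0.0126% and 0.117% of Myl3. The lengths behind these levels are those implied by the deposited FPKM, which for Myl2 (3054 bases) was longer than the summed exons of GENCODE M21 (1950 bases).

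**Figure D2:**
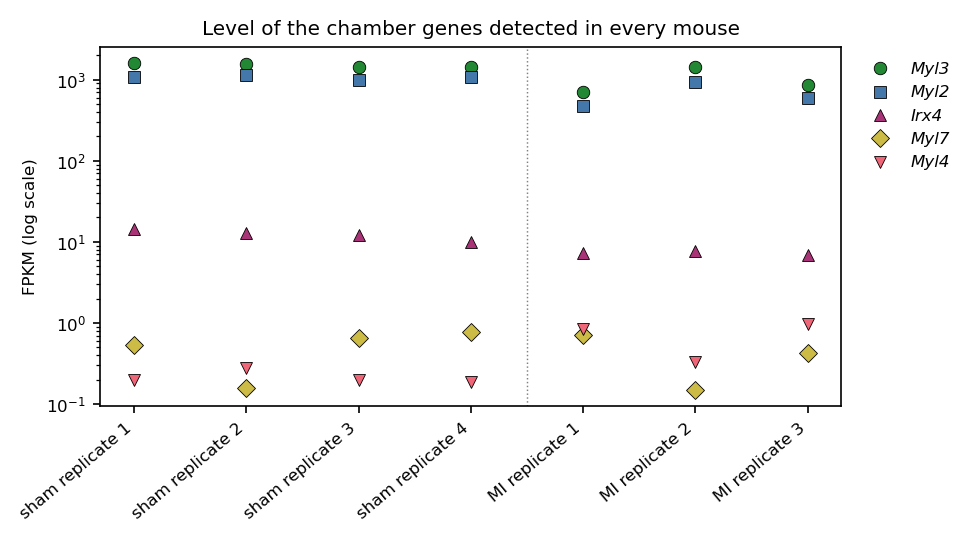
FPKM on a log axis of the 5 chamber genes detected in every mouse, for each of 4 sham and 3 MI mice (x axis). Myl3 and Myl2 lay at 469 FPKM or above in every mouse, Irx4 between 6.90 and 14.3, and Myl7 and Myl4 below 1.

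Only 3 of the 7 members, Myl2, Myl3 and Irx4, reached 1 FPKM in 3 or more mice and entered the test across genes. All 3 were above 1 FPKM in every mouse of both groups. None passed limma's test with Benjamini-Hochberg adjustment at 0.05 over 11431 genes, in which 0.00875% of genes were called lower in MI and 0.0175% higher. At an unadjusted p under 0.05, 3 of the 3 were lower in MI, and 9.85% of all genes tested were, while none was higher, against 29.5% of all genes tested. In these 3 every MI mouse was below every sham mouse, which held for 9.00% of the genes tested. The median log2 fold change of the 3 was -0.67, and that of all genes tested was 0.21.

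Myl2, the regulatory light chain of ventricular myosin (ENSMUSG00000013936, chromosome 5, 122100951 to 122113472 in GRCm38), was at 1095, 1148, 1000 and 1078 FPKM in sham replicates 1 to 4. It was at 469, 937 and 595 FPKM in MI replicates 1 to 3. All MI mice were below all sham mice, with MI replicate 2 at 86.7% of the sham mean and MI replicates 1 and 3 at 43.5% and 55.1%. The log2 fold change was -0.75 (SE 0.24, limma adjusted p = 0.108), and without MI replicate 2 it was -1.03 (limma adjusted p = 0.000144). These values rest on 31226 to 76037 fragments a mouse. Exons of Myl2 share 60 bases with Ccdc63 on the opposite strand, which was at most 0.0155 FPKM.

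Myl3, the essential light chain of ventricular and slow skeletal muscle myosin (ENSMUSG00000059741, chromosome 9, 110741861 to 110769798), had the highest level of the 7. It was at 1594, 1558, 1438 and 1432 FPKM in sham replicates 1 to 4 and at 709, 1431 and 858 FPKM in MI replicates 1 to 3. The groups were separated only by the narrow gap between MI replicate 2 (1430.71 FPKM) and sham replicate 4 (1432.23 FPKM), so that MI replicate 2 stood with the sham mice. The log2 fold change was -0.66 (SE 0.25, limma adjusted p = 0.112), and without MI replicate 2 it was -0.95 (limma adjusted p = 0.000118). Exons of Myl3 share 95 bases with Pth1r on the opposite strand, which was at 1.26 to 3.51 FPKM.

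The proportion of Myl2 to Myl3 and to the heavy chain changed little, though both were slightly below the sham range in MI replicates 1 and 2. Myl2 was 68.7% to 75.3% of Myl3 in the sham mice and 66.2%, 65.5% and 69.4% in MI replicates 1 to 3. Relative to Myh6, the main heavy chain of the adult mouse heart, Myl2 stood at 25.0% to 28.8% in sham. It stood at 24.6%, 23.4% and 26.4% of Myh6 in MI replicates 1 to 3. These proportions were computed after the values of the genes were seen and were not tested.

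Irx4 (ENSMUSG00000021604, chromosome 13, 73260479 to 73269608) was at 14.3, 12.7, 12.2 and 10.1 FPKM in sham replicates 1 to 4. It was at 7.39, 7.67 and 6.90 FPKM in MI replicates 1 to 3, on 445 to 480 fragments. All 3 MI mice were below all sham mice and close to each other, at 60.1%, 62.4% and 56.1% of the sham mean. The log2 fold change was -0.67 (SE 0.12, limma adjusted p = 0.108), and without MI replicate 2 it was -0.70 (limma adjusted p = 0.00191).

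In MI replicate 2, Irx4 was the member that stood furthest from the sham mean among the ventricular genes. Its log2 change there was -0.61, with 0.945% of the genes tested at or below that change in that mouse, while Myl3 changed by -0.07, with 35.8% at or below it, and Myl2 by -0.20, with 11.9%. In MI replicates 1 and 3 the order was the other way round, with log2 changes of -1.20 and -0.86 for Myl2 against -0.65 and -0.74 for Irx4. Relative to Myh6, Irx4 was at 0.246% to 0.376% in the sham mice, and at 0.387%, 0.192% and 0.306% in MI replicates 1 to 3, so it was below the sham range in MI replicate 2 alone. This contrast between mice was noticed in the data and was not tested.

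**Figure D3:**
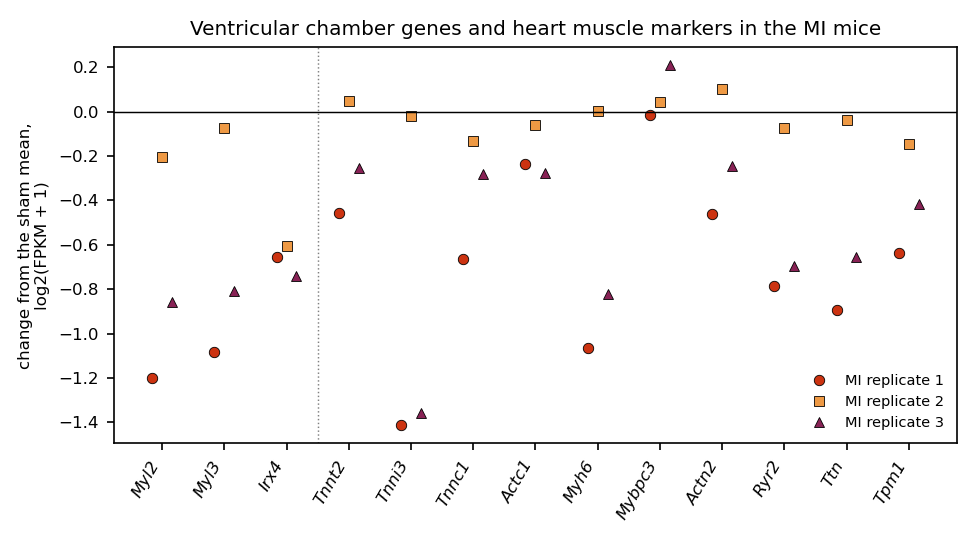
Change of each MI mouse from the sham mean on the log2(FPKM + 1) scale (y axis) for Myl2, Myl3 and Irx4 (left of the dotted line) and 10 heart muscle markers (right), with 1 symbol for each MI replicate. MI replicate 2 lay near 0 for Myl3 and for most markers, and at -0.61 for Irx4.

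Most other heart muscle genes gave overlapping groups, as did most genes tested. Of 10 heart muscle markers, all tested, none passed the adjusted test in either direction, 4 were lower at an unadjusted p under 0.05 (Tnni3, Ryr2, Ttn and Tpm1) against 9.85% of all genes tested, none was higher against 29.5%, and the median log2 fold change was -0.38. Tpm1 was the 1 marker of the 10 with every MI mouse below every sham mouse, a share near the 9.00% of all genes tested. Their summed level was 13708.5 to 14662.0 FPKM in the sham mice, and 9757.8, 13694.9 and 10430.4 FPKM in MI replicates 1 to 3. Over the same mice the summed level of 6 fibroblast markers was 100.1 to 123.6 FPKM in sham and 2295, 199.0 and 1748 FPKM in MI, and that of 6 leukocyte markers 112 to 149 FPKM in sham and 784, 136 and 681 FPKM in MI. The summed level of 6 mesothelial markers, genes of the layer covering the heart, was 4.16 to 9.69 FPKM in sham and 29.4, 20.9 and 43.5 FPKM in MI, so the sum was above the sham range in MI replicate 2 too, although Wt1 was not (0.451 FPKM against 0.481 to 0.640). None of these lists had a defining marker at 0 throughout. In bulk tissue, fewer heart muscle cells and less RNA per cell cannot be told apart, and the part of the other cell types in the lower ventricular values was not tested.

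Myl4, the essential light chain of atrial and embryonic muscle (ENSMUSG00000061086, chromosome 11, 104550663 to 104595753), was the only member whose MI values all lay above its sham values. It was at 0.200, 0.282, 0.199 and 0.189 FPKM in sham replicates 1 to 4 and at 0.833, 0.333 and 0.967 FPKM in MI replicates 1 to 3. These levels rest on 25, 34, 26 and 21 fragments in sham and on 101, 42 and 127 in MI. Every MI mouse was above every sham mouse, though MI replicate 2 lay close to sham replicate 2. Such separation held for 16.1% of the genes tested, a set that Myl4 did not enter. The share among genes at its low level was not computed. The MI mean was 3.27 times the sham mean, and 4.14 times without MI replicate 2. Of 4 genes on the opposite strand within Myl4, Gm11663 (at most 1.46 FPKM) and Gm11665 (0.176 to 0.775 FPKM) reached levels like those of Myl4 but share 0 exon bases with it, and Gm22000 (0.0632 to 0.315 FPKM) shares 3. Whether counting used the strand is not given in the sources used here. On the log2(FPKM + 1) scale, which understates changes at this level, the difference was 0.47 (exact two-sided permutation p = 0.0571, the smallest that 3 against 4 mice allow).

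Myl7, the regulatory light chain of atrial myosin (ENSMUSG00000020469, chromosome 11, 5896637 to 5898782), is the partner of Myl4 in atrial muscle. It was at 0.529, 0.156, 0.650 and 0.764 FPKM in sham replicates 1 to 4 and at 0.700, 0.150 and 0.431 FPKM in MI replicates 1 to 3. The groups overlapped over nearly their whole ranges, and each value came from 2 to 9 fragments. The log2(FPKM + 1) difference was -0.10 (exact two-sided permutation p = 0.571), and it was 0.05 without MI replicate 2, so no direction can be given at this depth.

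Sln (ENSMUSG00000042045, chromosome 9, 53850164 to 53854560) gave 3 fragments in sham replicate 3 (0.0970 FPKM), 7 fragments in MI replicate 1 (0.244 FPKM) and 0 in the other 5 mice. A count of 0 allows up to 3 fragments, which is 0.0964 to 0.114 FPKM in those 5 mice. The groups overlapped (exact two-sided permutation p = 0.857). Bmp10 (ENSMUSG00000030046, chromosome 6, 87428994 to 87437677) gave 0 fragments in all 7 mice, which at its GENCODE exon length allows up to 0.0283 to 0.0334 FPKM. Fragments are not independent molecules, and these limits cover counting error only.

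Each atrial chain was also compared with its ventricular counterpart in the same mouse, which gave 2 ratios. The log2 ratio of Myl4 to Myl3, with 1 FPKM added to each, was -10.27 ± 0.07 in sham (SD, n = 4) and -9.15 ± 0.80 in MI (SD, n = 3), a change of 1.13 with every MI mouse above every sham mouse (exact two-sided permutation p = 0.0571, adjusted p = 0.114 over the 2 ratios). As plain FPKM, Myl4 was 0.0126% to 0.0181% of Myl3 in sham and 0.117%, 0.0233% and 0.113% in MI replicates 1 to 3, and both lower Myl3 and higher Myl4 enter this change. The log2 ratio of Myl7 to Myl2 changed by 0.66, from -9.49 ± 0.33 to -8.83 ± 0.79, and the groups overlapped (exact two-sided permutation p = 0.229, adjusted p = 0.229). On this scale Myl2 changed by -0.75 and Myl7 by -0.10, so lower Myl2 and not higher Myl7 made the change. It was 0.30 without MI replicate 1 and 1.08 without MI replicate 2. As plain FPKM, Myl7 was 0.0136% to 0.0708% of Myl2 in sham and 0.149%, 0.0160% and 0.0724% in MI replicates 1 to 3.

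Other genes used more in the atria than in the ventricles did not move in 1 direction. Of 16 such genes, 11 were tested and none passed the adjusted test, 4 were higher and 5 lower at an unadjusted p under 0.05, where 29.5% of all genes tested were higher and 9.85% lower, and their median log2 fold change was -0.24 against 0.21 for all genes tested. Nppa, which encodes the hormone atrial natriuretic peptide, was at 69.7 to 185 FPKM in sham and at 7940, 160 and 8125 FPKM in MI replicates 1 to 3, so MI replicate 2 lay inside the sham range. Dkk3, a secreted Dickkopf family protein, was at 0.508 to 0.984 FPKM in sham and at 36.4, 2.00 and 37.3 FPKM in MI. It was above the sham range in all 3, as in 16.1% of the genes tested. Pam, the enzyme that amidates peptide hormones, was at 23.4 to 26.4 FPKM in sham and 54.9, 27.2 and 53.1 FPKM in MI.

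The values of 4 potassium channel genes of this list are given together, a choice made after they were seen. Kcnj3, a subunit of the channel opened by acetylcholine, was at 2.38 to 2.92 FPKM in sham and 0.684, 2.14 and 0.769 FPKM in MI, and its partner Kcnj5 was at 4.94 to 5.85 and at 3.10, 4.92 and 2.72 FPKM. Kcna5, which carries the ultrarapid delayed rectifier current, was at 15.7 to 16.8 FPKM in sham and 7.57, 12.5 and 11.2 FPKM in MI, and the background channel Kcnk3 at 63.2 to 72.0 and at 32.7, 59.1 and 36.2 FPKM. In these 4 genes every MI mouse was below every sham mouse, as in 9.00% of the genes tested. With all mice the log2 fold changes were -0.51 to -0.77 (limma adjusted p = 0.108 in each). Each changed least in MI replicate 2, and their test without that mouse is not given here. The potassium channel Kcnj2 and the channel subunit Kcnip2, both on the ventricular list, were below the sham range in MI replicates 1 and 3. Their log2 changes there were -0.49 and -0.64 for Kcnj2, and -1.10 and -0.58 for Kcnip2. In MI replicate 2 both were above the sham range, with log2 changes of 0.39 for Kcnj2 and 0.10 for Kcnip2. In MI replicates 1 and 3, where Nppa and Dkk3 were highest, Myl4 gave 101 and 127 fragments, Myl7 9 and 6, Sln 7 and 0, and Bmp10 0.

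**Figure D4:**
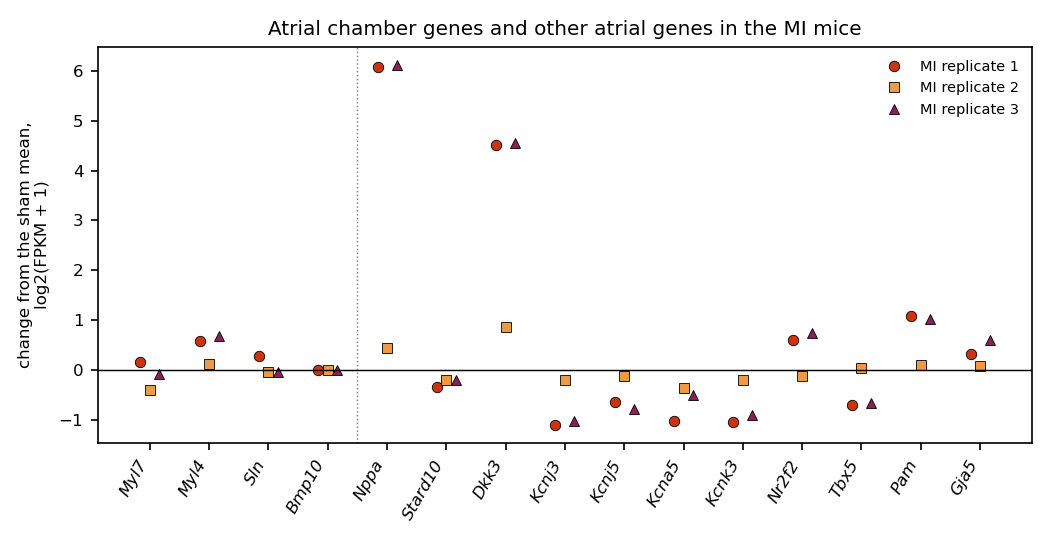
Change of each MI mouse from the sham mean on the log2(FPKM + 1) scale (y axis) for Myl7, Myl4, Sln and Bmp10 (left of the dotted line) and the 11 other atrial genes that were tested (right), with 1 symbol for each MI replicate. Nppa and Dkk3 stood above 4 log2 units in MI replicates 1 and 3, the 4 potassium channel genes lay below 0 in every MI mouse, and the members stayed within 0.7 log2 units of 0 on this scale, which compresses changes below 1 FPKM (Myl4 was at 383% and 444% of the sham mean in MI replicates 1 and 3).

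Other ventricular genes were also mixed. Of 9 listed, 7 were tested and none passed the adjusted test, with 1 higher and 2 lower at an unadjusted p under 0.05 (29.5% and 9.85% of all genes tested) and a median log2 fold change of -0.24. Lbh, a transcription cofactor of the developing ventricle, was at 145 to 174 FPKM in sham and 122, 134 and 123 FPKM in MI. It was below the sham range in all 3 mice, as in 9.00% of the genes tested. Myh7, the slow heavy chain, was at 89.4 to 104 FPKM in sham and 267, 94.8 and 255 FPKM in MI, higher than sham in MI replicates 1 and 3. Hand1 gave 0 in every mouse. The other Iroquois genes gave no call: Irx3, which shapes the ventricular conduction system, was at 4.57 to 5.10 FPKM in sham and 4.90, 5.49 and 4.91 FPKM in MI, and Irx5 at 0.937 to 1.26 and at 1.19, 1.17 and 1.47 FPKM, so that of the 3 other Iroquois genes tested, Irx1 included, none was past an unadjusted p of 0.05 and all 3 overlapped.

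Among 8 other myosin light chains, 5 were tested and none passed the adjusted test, with 2 higher and none lower at an unadjusted p under 0.05, against 29.5% higher and 9.85% lower of all genes tested. These were Myl6, the non-muscle and smooth muscle essential chain, at 7.02 to 7.94 FPKM in sham and 19.4, 7.04 and 22.3 FPKM in MI, and Myl9, the smooth muscle regulatory chain, at 10.8 to 12.0 and at 38.3, 12.1 and 41.6 FPKM. Both were higher in MI replicates 1 and 3 and near the sham range in MI replicate 2, and of the MI mice Myl4 too was lowest in MI replicate 2. The skeletal muscle chain Myl1 overlapped, at 4.98 to 7.32 FPKM in sham and 10.5, 4.64 and 13.0 FPKM in MI. The summed level of 10 skeletal muscle markers was 5.97 to 8.76 FPKM in sham and 13.6, 5.92 and 16.7 FPKM in MI. Myl1 is 1 of these 10 and made up most of the sum, so the sum says little of the others. Myh4 was at 0 in every mouse. Tnnt3, at 0.138 to 0.208 FPKM in sham and 1.88, 0.221 and 2.54 FPKM in MI, was the marker whose groups did not overlap. The part of these in the Myl4 values was not tested.

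The partners of the 2 members that gave few or no fragments were mostly well detected. SERCA2, the calcium pump that sarcolipin inhibits, is encoded by Atp2a2, which was at 1418 to 1502 FPKM in sham and 607, 1457 and 665 FPKM in MI. Pln, the ventricular counterpart of Sln, was at 103 to 122 FPKM in sham and 56.4, 112 and 61.5 FPKM in MI. For both, MI replicate 2 lay within the sham range, and of the 3 genes tested in this list 2 were lower at an unadjusted p under 0.05, against 9.85% of all genes tested. Mrln, which encodes myoregulin, another small inhibitor of the pump, was below the filter, at 0.304 to 0.376 FPKM in sham and 0.152, 0.146 and 0.164 FPKM in MI, below the sham range in all 3 mice. Strit1, Erln and Arln, other regulators of the pump, were not analysed here.

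Of 15 genes of Bmp10 signalling (its relative Gdf2, receptors, mediators and targets), 13 were tested, none passed the adjusted test, and 5 were higher and none lower at an unadjusted p under 0.05, with a median log2 fold change of 0.34. Over all genes tested 29.5% were higher at that p and the median was 0.21, so the higher share is near the background. Acvrl1, the main type I receptor of Bmp10 on endothelium, was at 4.57 to 5.98 FPKM in sham and 8.85, 6.43 and 9.51 FPKM in MI. It was above the sham range in all 3 mice, as in 16.1% of the genes tested. Among the Id genes, which are targets of the pathway, Id3 was at 19.1 to 20.3 FPKM in sham and 72.9, 18.6 and 66.1 FPKM in MI, and Id1 at 19.5 to 29.0 and at 19.1, 24.6 and 24.5 FPKM. The groups overlapped for Id1, Id2 and Id3, for Id2 and Id3 through MI replicate 2 alone. The summed level of 5 endothelial markers was 104 to 121 FPKM in sham and 126, 96.2 and 136 FPKM in MI, with Cdh5 the largest part. Kdr was the 1 marker with separated groups, at 18.1 to 21.5 FPKM in sham and 17.7, 16.5 and 16.4 FPKM in MI. It was lower in every MI mouse, as in 9.00% of the genes tested.

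For each tested member, the 3 genes with the nearest profile over the 7 mice were named. Likeness was the root mean square difference of log2 values after centring each gene on its sham mean. Nearest to Myl2 were Mccc2 (0.048), a mitochondrial enzyme of leucine breakdown, Perm1 (0.058), a muscle regulator of energy metabolism, and Gpt (0.059), an alanine aminotransferase. Nearest to Myl3 were Got1 (0.040), an aspartate aminotransferase, Mlycd (0.041), malonyl-CoA decarboxylase, and Slc25a20 (0.048), the carnitine carrier of mitochondria. Nearest to Irx4, at a greater distance, were Grip2 (0.078), a scaffold protein, Hcn4 (0.123), the main pacemaker channel, and Ndufb4c (0.125). Grip2 was at 1.94 to 3.74 FPKM in sham and 1.49, 1.45 and 1.22 FPKM in MI, and Hcn4 at 1.48 to 2.19 and at 0.675, 1.18 and 1.02 FPKM. Every MI mouse was below every sham mouse in 8 of these 9 genes, Got1 being the exception, and since the genes were picked for likeness over these same values this is a description.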

How the data were processed

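Total RNA from the myocardium of 4 sham and 3 MI mice was sequenced, 1 library a mouse, and groups were taken from the labels' treatment field. The authors deposited FPKM for 56980 Ensembl genes (all columns of values were used). The submitters' processing notes name CASAVA 1.8, HISAT2, SAMtools 1.3.1 and edgeR, and the mm10 build. The annotation, the counting program and the use of strand were not given in the sources used here. Symbols and positions came from GENCODE M21 on GRCm38, which held 52073 identifiers (91.4%), and promoters from RefSeq GRCm38.p6.

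Whole fragments were recovered from the steps of the FPKM values for 30504 of 30504 genes above 0, within 0.003 of a whole number. Recovered depths were 19977713 to 23610870 fragments, and the implied lengths were not always those of GENCODE M21.

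After adding 1 to each FPKM and taking log2, MI was compared with sham in the 11431 genes that reached 1 FPKM in 3 or more mice, by limma 3.58.1 under R 4.3.3 (lmFit, eBayes with trend, no covariates), with Benjamini-Hochberg adjustment over all of them. For single genes below this filter and for 2 ratios, exact two-sided permutation tests ran over 35 splits of the mice. These p-values measure the spread between mice. Tables were handled in pandas 2.3.3 and NumPy 2.4.6 under Python 3.11.15, and figures drawn with matplotlib 3.10.9. Fragment recovery and limma were tested on simulated data. For limma all simulated mice had the spread of the sham mice, so that check does not cover the wider spread of the MI mice.

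The members and the gene lists were chosen with earlier results of these data known. Genes named are the members, the 3 nearest to each tested member, and genes of the fixed lists. Same-numbered sham and MI mice did not vary together, so replicate numbers were not used as pairs. Alternatives were a pseudocount of 0.1, no filter, TPM, median log-ratio scaling, quantile normalization, sample weights, voom on recovered fragments, a replicate block and each mouse left out. Counts of members with separated groups, recomputed without MI replicate 2, were added after seeing the data.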

Additional observations from a re-analysis of the deposited data

Results flagged for a closer look

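Among 8 sets of sham values examined, 3 had 1 mouse far from the others. Chance gives this in about 1 in 20 independent sets of continuous values, a rate that cannot be read against these 3, because 2 of them share the Myl4 values and the third is a single value above 0. For Myl4, sham replicate 2 stood high at 0.282 FPKM (34 fragments) against 0.189 to 0.200 FPKM in the other sham mice, a gap of 0.877 of the range. For the log2 ratio of Myl4 to Myl3, sham replicate 1 stood low at -10.38 against -10.25 to -10.23, a gap of 0.866 of the range. For Sln, sham replicate 3 gave 3 fragments and the other sham mice 0, so the gap was the whole range (1.0).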

How the results depend on the processing

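Of the 3 members tested (6 without the filter), none was called higher in MI under any of 15 alternatives, and none lower in 13 of them. Myl4 was tested across genes only without the filter (adjusted p = 0.188). With sample weights 3 members were called lower, and without MI replicate 2 also 3, so the count over the mice left out ran from 0 to 3. The weights were 437 for MI replicate 3 against 0.0217 for MI replicate 2, and with them 7636 genes were called higher and 2316 lower in the whole table. Without MI replicate 2, 6512 genes were called higher and 1683 lower, against 2 and 1 with all mice. The log2 fold changes kept their direction in all 15, from -1.03 to -0.53 for Myl2, -0.95 to -0.41 for Myl3 and -0.94 to -0.51 for Irx4. The Myl4 difference stayed positive in 13 alternatives, from 0.47 with all mice to 1.26 with a pseudocount of 0.1, 0.87 as TPM and 0.28 after quantile normalization. With mice left out, the Myl7 difference ran from -0.232 to 0.051 (without MI replicate 2) and the Sln difference from -0.033 (without MI replicate 1) to 0.124. Sample weights and voom were not run for the 4 members below the filter. The log2 ratio of Myl4 to Myl3 changed by 0.69 to 1.92 and that of Myl7 to Myl2 by 0.30 to 1.08 over 12 alternatives each. The counts of 3 members below and 1 above sham without overlap were the same without MI replicate 2; leaving out a mouse could only have raised them. With a replicate block the log2 fold changes were -0.75 for Myl2, -0.68 for Myl3 and -0.75 for Irx4, with 0 calls, and same-numbered mice had correlations of 0.074, -0.016 and -0.08. The block gave the log2 ratio of Myl4 to Myl3 a change of 1.14. Rescaling to TPM moved the median of all genes from 0.21 to 0.42, and median log-ratio scaling to 0.004. The causes of these shifts were not tested. Myl7, Sln and Bmp10 rest on 0 to 9 fragments a mouse, which limits what can be compared.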
